A study of Mus musculus with 12 samples.

Results

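Gene expression was compared between Cthrc1-/- and wild-type (WT) mice in unwounded dermis, the connective tissue layer under the epidermis, taken on day 0 of a wounding experiment. Polyadenylated RNA from 3 Cthrc1-/- and 3 WT samples was sequenced, which makes 6 of the 12 samples in the series. The other 6 samples are the same genotypes on day 7. Genes were included where the mean FPKM (sequenced fragments relative to transcript length and library size) over the 6 day 0 samples was at least 1, and 13907 of the 55401 genes in the table met this. All mice were C57BL/6 and aged 6 weeks, and the labels call the 3 samples of each group biological replicates. The allele, the sex, any pooling of animals and the way the dermis was separated are not given in the sources used here. The labels name no Cre driver or cell type for the deletion.

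Cthrc1 encodes a secreted glycoprotein with a short collagen-like repeat, made by activated fibroblasts and known as a modulator of collagen deposition, TGF-beta signalling and Wnt polarity signalling through Ror2 and Frizzled receptors. Mouse dermis also contains the lower part of the hair follicles. Follicles cycle between growth (anagen) and rest (telogen). In anagen a proliferating matrix at the base of the follicle makes the hair shaft, built from hair keratins and keratin-associated proteins, and the inner root sheath around it, built from its own keratins and trichohyalin. Melanocytes of the matrix make pigment only during growth.

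Depth ranged from 48329668 to 76938132 total counts per day 0 sample. The fibroblast genes Col1a1, Col3a1, Dcn and Pdgfra were present in all 6 samples, as the tissue label implies. Genes of keratinocytes were abundant too, so the samples held epithelium as well as connective tissue. Krt5 lay between 1773 and 3826 FPKM and Krt14 between 1775 and 3297 FPKM over the 6 samples. Krt10, a keratin of differentiating epidermis, was at 1417, 1652 and 1665 FPKM in WT and at 962, 699 and 175 FPKM in Cthrc1-/-. These keratins were picked after their values had been seen. Below, 3 values in a row are replicates 1, 2 and 3 of a group.

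The 3 Cthrc1-/- samples were unlike each other, and replicate 3 stood farthest from WT. The correlation of log2 expression across genes, which are not independent replicates, was between 0.972 and 0.973 for pairs of WT samples. It was 0.937, 0.870 and 0.938 for the pairs of Cthrc1-/- samples. The median absolute log2 difference from the WT mean was at most 0.114 in a WT sample and 0.225, 0.288 and 0.473 in the Cthrc1-/- samples. Replicate 3 of Cthrc1-/- was the lowest of the 6 samples for 30.6% of genes and the highest for 36.4%. For each list with a call, the number called without it is therefore also given. With the 6 day 0 samples alone, the lists described below held no call, apart from 2 epidermal genes and 1 gene near Cthrc1.

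In edgeR's quasi-likelihood test with the spread shared over all 12 samples, 828 of 13907 genes (5.95%) passed an adjusted p of 0.05. Of these, 526 genes (3.78%) were higher and 302 (2.17%) lower in Cthrc1-/-. Samples of the 2 genotypes did not overlap for 2991 genes (21.5%) that were higher in Cthrc1-/- and for 2777 (20.0%) that were lower. The number of calls depended on the samples in the fit. With the 6 day 0 samples alone edgeR called 19 genes (0.137%), 12 higher (0.0863%) and 7 lower (0.0503%). In that fit 722 of the 828 had an adjusted p under 0.1, and 1378 of all 13907 genes did. Both fits contrast the same 6 samples, so the 722 are no independent support for the calls. Without Cthrc1-/- replicate 3, edgeR called 236 genes, and without any 1 WT sample it called between 23 and 34. The contrast of genotypes on day 7 called 2 genes (0.0144%), and the interaction of genotype and day likewise 2 (0.0144%).

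Cthrc1 (ENSMUSG00000054196, chr15:39076932-39087121 on the plus strand of GRCm38) was at 27.0, 21.8 and 21.1 FPKM in WT and at 0, 0.151 and 0 FPKM in Cthrc1-/-. Every library carrying the knockout label thus held almost no Cthrc1 transcript. The log2 change was -8.85 (SE 1.03, adjusted p = 0.00749). With the 6 day 0 samples alone the adjusted p was 0.071. Ror2, the co-receptor named above, was at 3.25, 3.11 and 3.08 FPKM in WT and 3.14, 3.41 and 6.25 FPKM in Cthrc1-/- (adjusted p = 0.305).

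Genes of the inner root sheath were near 0 in WT and high in Cthrc1-/-. Most members were under or near 1 FPKM in WT and met the mean FPKM minimum through the Cthrc1-/- samples, so their direction was fixed by that filter. Of 12 members tested, 10 rose, while 3.78% of all genes were called higher. The median log2 change was 10.69 beside 0.01 over all genes tested (10.19 with the gene absent from WT set at its lower bound). Without Cthrc1-/- replicate 3, 7 members were called, and also 7 without replicate 2. The promoters of 2 of its keratins, both type I, are shown because the members moved together. They are the 250 bases before the RefSeq start on GRCm38.p6, with a TATAAA box and any AGATAA or TGATAA, letters bound by GATA factors, in capitals.
Krt25: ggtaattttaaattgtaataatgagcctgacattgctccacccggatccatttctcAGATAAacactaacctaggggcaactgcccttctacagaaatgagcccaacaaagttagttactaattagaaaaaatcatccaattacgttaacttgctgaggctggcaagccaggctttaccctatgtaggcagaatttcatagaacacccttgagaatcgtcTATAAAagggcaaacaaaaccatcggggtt
Krt27: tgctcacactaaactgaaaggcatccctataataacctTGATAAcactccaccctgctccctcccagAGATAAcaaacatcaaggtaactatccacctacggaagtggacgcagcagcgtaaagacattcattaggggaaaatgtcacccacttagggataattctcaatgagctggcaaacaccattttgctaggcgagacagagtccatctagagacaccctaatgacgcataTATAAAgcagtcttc
The first lies at chr11:99322952-99323201 and the second at chr11:99351119-99351368, both on the minus strand. TATAAA began 30 bases before the start in Krt25 and 15 bases before it in Krt27. On the gene's own or the opposite strand, TATAAA was found in 7 of 7 inner root sheath keratin promoters in the RefSeq table and in 12.4% of all 32851 promoters there; over the whole list it was in 7 of 11. Either GATA sequence was found in 4 of those 7, in 6 of the 11 and in 16.6% of all. These motifs were chosen after the sequences were seen, and a match is a description only.

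Krt71, a type II keratin of the inner root sheath, was at 0.307, 1.06 and 0.821 FPKM in WT and at 66.1, 1526 and 3950.0 FPKM in Cthrc1-/-. Krt25, a type I partner, was at 0, 0.766 and 0.672 FPKM in WT and at 60.8, 1315 and 3333 FPKM in Cthrc1-/-. All Cthrc1-/- samples lay above all WT samples, but replicate 1 was far below the other two. The log2 change was 11.22 (SE 1.68, adjusted p = 0.0134) for Krt71 and 11.58 (SE 2.00, adjusted p = 0.0212) for Krt25. Krt27, whose promoter is printed above, rose by 10.70 on the log2 scale. Krt28 and Krt73 rose by 9.23 and 10.76. Tchhl1, a trichohyalin-like protein, had no count in WT and was at 1.41, 23.2 and 32.6 FPKM in Cthrc1-/-, at least 829-fold higher against a floor of 3 counts per library. Padi1, an enzyme that converts arginine to citrulline in such proteins, was absent from WT in the same way and at 0.413, 10.99 and 19.6 FPKM in Cthrc1-/-, at least 817-fold higher. The transcription factor Gata3, also on the list, did not pass the test (log2 change 0.37, adjusted p = 0.549).

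**Figure D1:**
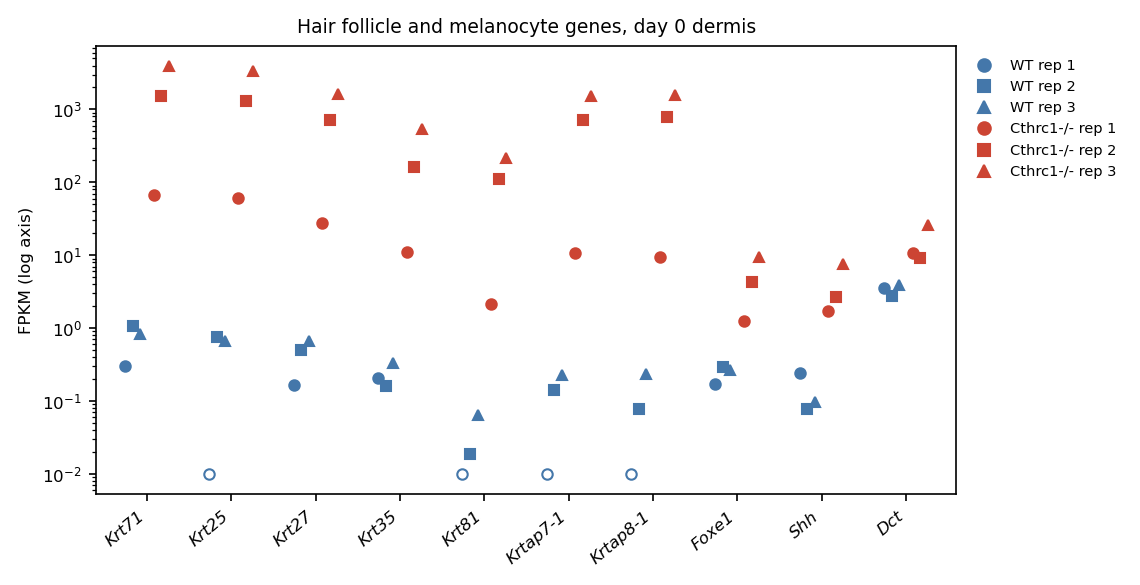
FPKM on a log axis of 10 genes of the hair follicle and of melanocytes in each day 0 sample; blue is WT, red is Cthrc1-/-, the symbol gives the replicate, and open symbols at the bottom mark a value of 0. Every red point lies above every blue point of its gene, and Krt71 runs from 66.1 to 3950.0 FPKM within Cthrc1-/-.

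Summed over the inner root sheath list, FPKM was between 29.5 and 37.0 in WT and 264, 4983 and 11906 in Cthrc1-/-. On day 7 the same sum ran from 1710 to 4186 in WT and from 546 to 5482 in Cthrc1-/-. Among the Cthrc1-/- day 0 samples, replicate 1 lay below the day 7 range, replicate 2 within it and replicate 3 above it, while the WT day 0 samples lay below every other sample. Fewer cells of a type and less RNA per cell cannot be told apart in such bulk samples.

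Keratins of the hair shaft followed the same order of samples, and here too the filter fixed the direction of members near 0 in WT. Of 13 tested, 11 rose (3.78% of all genes were called higher), with a median log2 change of 9.88 (9.60 with bounds). The count was 2 without Cthrc1-/- replicate 3, and also 2 without replicate 2. Krt35, an early shaft keratin, was at 0.207, 0.162 and 0.335 FPKM in WT and at 11.2, 161 and 546 FPKM in Cthrc1-/- (log2 change 9.90, SE 1.55, adjusted p = 0.0155). Krt36, Krt81 and Krt86 rose by 9.14, 11.78 and 11.15 on the log2 scale. Krt33b was without counts in WT and at 1.23, 76.4 and 199.7 FPKM in Cthrc1-/-, at least 3079-fold higher. Krt82, a cuticle keratin, was likewise absent from WT and reached 27.6 FPKM, at least 564-fold higher.

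Keratin-associated proteins, which crosslink the keratins of the shaft, were measured for 58 genes and tested for 43. Members near 0 in WT could meet the mean FPKM minimum only through the samples in which they were high, so their direction was fixed by the filter. Of the 43, 7 rose (16.3%, beside 3.78% called higher over all genes). None passed in edgeR without Cthrc1-/- replicate 3, with 35 at an unadjusted p under 0.05. The same held without replicate 2, with 38 at an unadjusted p under 0.05. For 24 of the 43 a whole group was at 0, and the median log2 change was 10.86 as fitted and 7.48 with those at their bound. Krtap8-1 was at 0, 0.0768 and 0.236 FPKM in WT and 9.33, 793 and 1591 FPKM in Cthrc1-/- (log2 change 12.75, SE 2.97, adjusted p = 0.0396). Krtap7-1 (log2 change 12.39), Krtap11-1 (10.68) and Krtap1-5 (9.89) rose too. Whether reads were split between similar members of this family was not tested.

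Among regulators of the hair matrix and papilla, 8 of 32 rose and 2 fell, with a median log2 change of 1.25. The share called was 31.2%, beside 5.95% over all genes (3.78% higher and 2.17% lower). When Cthrc1-/- replicate 3 was left out, 5 were called, and 4 when replicate 2 was left out. Shh, the hedgehog ligand made by the matrix, was at 0.243, 0.0775 and 0.0980 FPKM in WT and at 1.74, 2.64 and 7.51 FPKM in Cthrc1-/- (log2 change 4.74, SE 0.71, adjusted p = 0.0133). The forkhead factor Foxe1 rose by 4.27 on the log2 scale, and the transcriptional repressor Prdm1 by 1.22. Shh and Foxe1 were under 1 FPKM in every WT sample. They met the mean FPKM minimum through the Cthrc1-/- samples, so the filter fixed their direction. Dlx3, Msx2 and Lef1, transcription factors of the differentiating shaft, rose by 4.63, 3.72 and 3.21. Corin, a protease of the dermal papilla, rose by 4.17, and Alx4 by 2.33. The members that fell were Bmp4 and its secreted antagonist Nog. Bmp4 was at 6.03, 25.4 and 23.4 FPKM in WT and 2.52, 3.54 and 3.33 FPKM in Cthrc1-/- (log2 change -2.60, SE 0.46, adjusted p = 0.0217). Nog was at 5.68, 6.05 and 5.65 FPKM in WT and 2.75, 1.85 and 1.32 FPKM in Cthrc1-/- (log2 change -1.59, adjusted p = 0.0245).

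Of 8 melanocyte genes 2 rose (25.0%, beside 3.78% called higher over all genes) and none fell, with a median log2 change of 2.31. Of the others, 4 had positive and 2 negative changes; these 2 were the transcription factors Mitf (log2 change -0.47, adjusted p = 0.0983) and Sox10 (-0.46, adjusted p = 0.306), both lower in every Cthrc1-/- sample than in any WT sample. The median was 1.33 and 1 gene was called without Cthrc1-/- replicate 3. Dct, an enzyme of melanin synthesis, was at 3.53, 2.77 and 3.88 FPKM in WT and at 10.7, 9.27 and 25.6 FPKM in Cthrc1-/- (log2 change 2.10, SE 0.45, adjusted p = 0.0322). The receptor Kit rose by 2.22 on the log2 scale. It was under 1 FPKM in every WT sample, so here too the filter fixed the direction. Kit is shared with mast cells and was the 1 called member of 6 on the mast cell list (16.7%, beside 5.95% over all genes). Without Cthrc1-/- replicate 3, 1 member of the mast cell list was called. The mast cell proteases Mcpt4 and Cma1 did not pass (log2 changes -0.41 and -0.55). Pmel and Tyrp1 had log2 changes of 2.39 and 2.82 and adjusted p-values of 0.0507 and 0.0859, with Tyrp1 at 1.19, 7.08 and 29.4 FPKM in Cthrc1-/-.

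Cell division genes rose by less and followed the order of the hair keratins only in part. Of 30 members 22 rose (73.3%, beside 3.78% called higher over all genes) and none fell. In 29 of them the genotypes did not overlap, while 21.5% of all genes lay higher without overlap. The median log2 change was 1.20. Leaving out replicate 3 of Cthrc1-/-, 9 were called. Birc5, which encodes survivin, was at 3.81, 3.01 and 3.74 FPKM in WT and at 9.62, 8.10 and 13.1 FPKM in Cthrc1-/- (log2 change 1.49, SE 0.22, adjusted p = 0.0129). The cyclin Ccna2 and the helicase subunit Mcm2 rose by 1.26 and 1.16 on the log2 scale. Summed over the list, FPKM was between 166 and 201 in WT and 326, 276 and 467 in Cthrc1-/-, where it was lowest in replicate 2. Replicate 3 of Cthrc1-/- was the highest of the 6 samples for 26 of the 30 members, and for 36.4% of all genes.

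**Figure D2:**
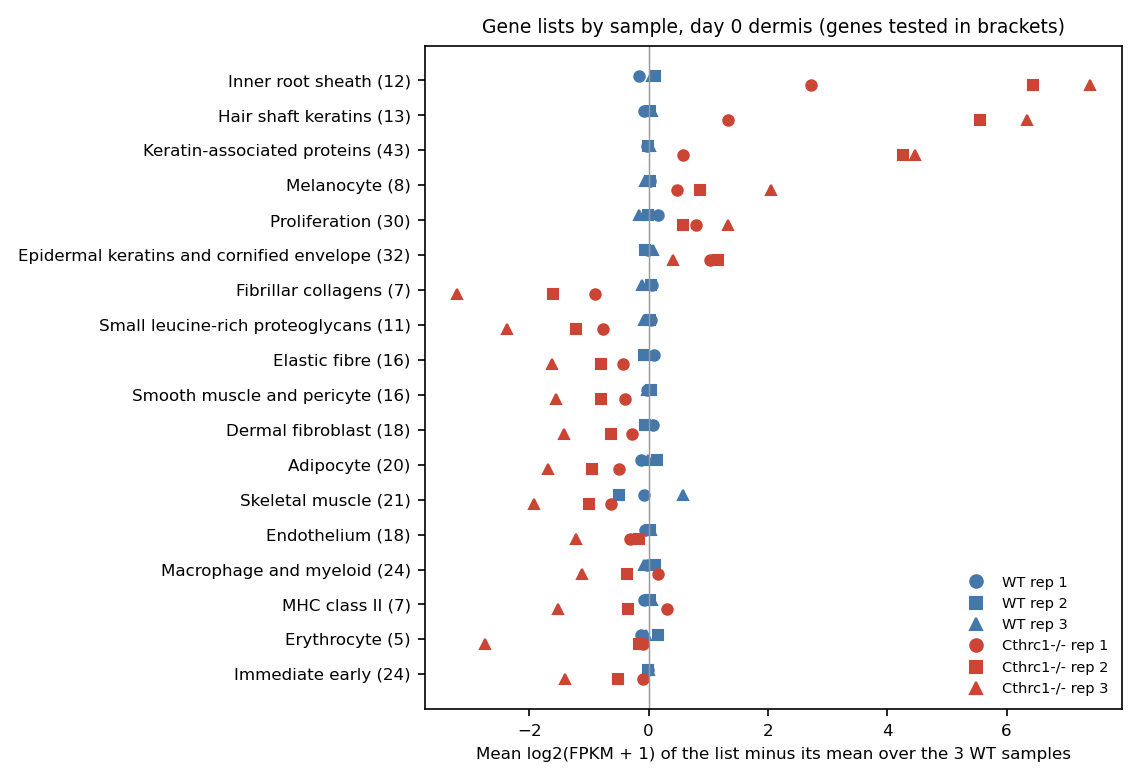
Mean log2(FPKM + 1) of 18 gene lists in each day 0 sample, minus the mean of the 3 WT samples (vertical line); blue is WT, red is Cthrc1-/-, and the symbol gives the replicate. The hair lists spread from left to right over the Cthrc1-/- replicates 1, 2 and 3, and the matrix and vascular lists lie farthest left in replicate 3.

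Most genes of the connective tissue lists had negative changes in Cthrc1-/-. Of 7 fibrillar collagens tested, 1 fell, beside 2.17% called lower over all genes. All 7 had a negative change, 6 lay lower without overlap (20.0% of all genes did), and the median log2 change was -1.80. The number called was 5, 0 and 2 without Cthrc1-/- replicates 1, 2 and 3, with medians of -2.54, -1.77 and -1.36. Col1a2, a chain of type I collagen, was at 1183, 1490.3 and 1075 FPKM in WT and at 445, 230.0 and 53.7 FPKM in Cthrc1-/- (log2 change -2.40, SE 0.59, adjusted p = 0.0439). Its partner chain Col1a1 was at 2410.3, 3122 and 2211 FPKM in WT and at 1033, 555 and 136 FPKM in Cthrc1-/-, with a log2 change of -2.20 and an adjusted p of 0.0506. Both chains were lowest in replicate 3. Col3a1 had a log2 change of -2.00 (adjusted p = 0.079).

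Of 19 non-fibrillar collagens, 2 fell, namely Col4a5 of basement membranes by 1.09 on the log2 scale and Col15a1 by 1.25; both calls were lost in edgeR without Cthrc1-/- replicate 3. Of 24 genes for collagen processing and crosslinking, 2 fell. These were Adamts14, a procollagen N-propeptidase, at 10, 9.21 and 7.86 FPKM in WT and 3.21, 1.58 and 0.567 FPKM in Cthrc1-/-, and the prolyl isomerase Fkbp14 (log2 change -1.71). Serpinh1, the collagen chaperone, was at 214, 215 and 93.7 FPKM in WT and 51.3, 116 and 62.7 FPKM in Cthrc1-/-, so the genotypes overlapped. Podn was the 1 of 11 small leucine-rich proteoglycans that fell (log2 change -2.23, SE 0.46, adjusted p = 0.0305). Dcn and Lum of that list had log2 changes of -1.31 and -1.64 with adjusted p-values of 0.11 and 0.0804. Mfap2 was the 1 of 16 elastic fibre genes that fell, by 1.50 on the log2 scale. The shares called were 10.5% of non-fibrillar collagens, 8.33% of processing genes, 9.09% of proteoglycans and 6.25% of elastic fibre genes. All were falls, beside 2.17% called lower and 5.95% called in either direction over all genes, and the last 2 shares rest on 1 gene each. Without overlap, 14 of 19, 20 of 24, 10 of 11 and 13 of 16 members of these lists lay lower (20.0% of all genes did). In the same order, 1, 0, 0 and 0 lay higher (21.5% of all genes did). Among 19 matricellular genes 2 fell: Sparc, a collagen-binding protein, at 1964, 2421 and 1878 FPKM in WT and 835, 512 and 181 FPKM in Cthrc1-/-, and Thbs4 (log2 change -2.81). Leaving out replicate 3 of Cthrc1-/-, the proteoglycan call was lost and 1 processing, 1 elastic fibre and 1 matricellular gene were called. Without replicate 2, none of the lists in this paragraph held a call.

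**Figure D3:**
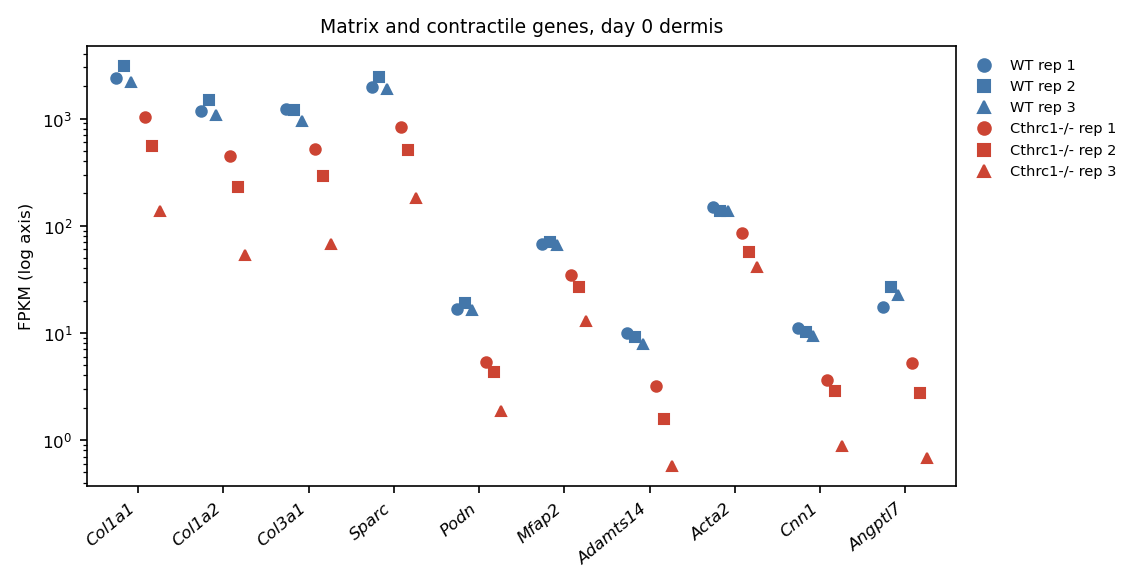
FPKM on a log axis of 10 matrix and contractile genes in each day 0 sample; blue is WT, red is Cthrc1-/-, and the symbol gives the replicate. In all 10 genes the Cthrc1-/- samples lie below the WT samples and replicate 3 (triangle) is lowest, as for Col1a2 at 53.7 FPKM.

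None of 18 dermal fibroblast markers and none of 25 TGF-beta pathway genes passed in edgeR; 7 and 5 of them had an unadjusted p under 0.05, and DESeq2 called 4 and 2. Among the fibroblast markers the median log2 change was -0.80. Dpt was at 241, 227 and 252 FPKM in WT and at 169.8, 97.3 and 43.4 FPKM in Cthrc1-/- (adjusted p = 0.113). The TGF-beta list had 13 negative and 12 positive changes. Of 42 Wnt genes 4 rose (9.52%, beside 5.95% called over all genes) and none fell. The list had 19 positive and 23 negative changes and a median of -0.02. In 12 members Cthrc1-/- lay higher without overlap and in 7 lower (21.5% and 20.0% of all genes did). Without Cthrc1-/- replicate 3 edgeR called 1 gene of the list, and without replicate 2 all 4 calls were lost. The called members were Sfrp1, a secreted antagonist, at 18.1, 19.1 and 18.3 FPKM in WT and 25.5, 33.8 and 34.5 FPKM in Cthrc1-/-, the ligand Wnt11 (log2 change 1.78), the receptor Fzd5 (1.29) and Lef1.

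Of 16 contractile and other genes of smooth muscle and pericytes, 3 fell (18.8%, beside 2.17% called lower over all genes) and none rose. Acta2, smooth muscle actin, was at 148, 137 and 137 FPKM in WT and at 85.2, 57.1 and 41.4 FPKM in Cthrc1-/- (log2 change -1.24, SE 0.26, adjusted p = 0.032). Cnn1 and Tagln, which bind actin, fell by 2.08 and 0.84 on the log2 scale. In this list 1 gene was called without Cthrc1-/- replicate 3, and 0 without replicate 2. None of 18 endothelial, 12 Schwann cell, 21 skeletal muscle and 24 macrophage genes passed in edgeR, where 2, 4, 4 and 3 had an unadjusted p under 0.05 and DESeq2 called 0, 1, 1 and 2. Their median log2 changes were -0.68, -0.79, -1.49 and -0.78.

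Cthrc1-/- replicate 3 held the lowest value for 18 of the 18 endothelial genes, 20 of the 24 macrophage genes, 18 of the 21 skeletal muscle genes, 7 of the 7 MHC class II genes and 5 of the 5 erythrocyte genes. For all genes tested this share was 30.6%. Summed erythrocyte FPKM was between 1273 and 1572 in WT and 1263, 1135 and 153 in Cthrc1-/-. Summed MHC class II FPKM was between 665 and 735 in WT and 822, 476 and 180.1 in Cthrc1-/-. In replicate 1 the MHC class II sum was thus above the WT range and the erythrocyte sum just under it, while its fibrillar collagen sum (2066 FPKM) was under the WT range of 4367 to 5952. The part of these cell type differences in the falls above was not tested.

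Fat, sebaceous gland, interferon and heat shock genes were called at 5.0%, 5.0%, 5.26% and 5.56%, near the 5.95% over all genes. The call was a fall in the first 3 lists (2.17% of all genes) and a rise in the last (3.78%). Each of these calls was lost without Cthrc1-/- replicate 3, and also without replicate 2. Without overlap, 14 of 20 adipocyte, 2 of 20 sebaceous and 9 of 19 interferon genes lay lower and 0 higher. Of 18 heat shock genes, 7 lay lower and 3 higher (20.0% and 21.5% of all genes did). Of 20 adipocyte genes, Agpat2, an enzyme of triglyceride synthesis, fell by 0.70 on the log2 scale, and Cfd, which encodes adipsin, was at 309, 437 and 416 FPKM in WT and 209.9, 76.6 and 25.5 FPKM in Cthrc1-/- (adjusted p = 0.125). Dgat2 was the 1 sebaceous gene of 20 that fell (log2 change -1.05). None of 24 immediate early genes passed in edgeR (10 at an unadjusted p under 0.05, and DESeq2 called 6); Fos had a log2 change of -1.28 (adjusted p = 0.0787). Usp18, an interferon-induced protease, fell by 2.67 as the 1 call of 19 in its list. None of 13 mitochondrially encoded genes passed in edgeR (1 at an unadjusted p under 0.05, none in DESeq2). Of 18 heat shock genes the mitochondrial chaperone Hspd1 rose, by 0.61, and this call was lost with total-count scaling.

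Genes of the differentiating and activated epidermis did not follow the order of the hair genes over the Cthrc1-/- samples. Of 32 epidermal keratin and cornified envelope genes 7 rose (21.9%, beside 3.78% called higher over all genes) and none fell. The median log2 change was 1.25, with 21 positive and 11 negative changes. Without overlap, 17 members lay higher and 6 lower in Cthrc1-/- (21.5% and 20.0% of all genes did). Among the 6 was Krt10 (log2 change -1.41, adjusted p = 0.304). The median was 1.32 and 3 were called without Cthrc1-/- replicate 3, and 2 were called without replicate 2. Sprr1a, a precursor of the cornified envelope, was at 102, 94.5 and 88.8 FPKM in WT and at 531, 1166 and 966 FPKM in Cthrc1-/- (log2 change 3.17, SE 0.38, adjusted p = 0.00749). Sprr1b was at 2.33, 0.927 and 3.42 FPKM in WT and at 64.9, 57.0 and 31.0 FPKM in Cthrc1-/-, with its highest value in the replicate that had the lowest hair keratins. Krt16 and Krt17, keratins of activated keratinocytes and of follicles, rose by 2.94 and 1.24 on the log2 scale. Tgm1, a transglutaminase, and Klk7, a protease of the cornified layer, rose by 1.74 and 1.99.

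Of the 19 genes called with the 6 day 0 samples alone, 18 were also called with 12 samples. They were picked after their values had been seen, and 2 of them, Sprr1a and Cnfn, are on the epidermal list. Klk6, a kallikrein protease, was at 2.81, 1.82 and 1.33 FPKM in WT and at 27.0, 70.8 and 45.5 FPKM in Cthrc1-/- (log2 change 4.54, SE 0.53, adjusted p = 0.00749). Klk13, of the same family, rose by 3.44 on the log2 scale. Irx4, a homeobox factor, Rassf10 and Tmem134 rose by 2.00, 2.43 and 1.40, and the phospholipase Pla2g4e by 3.02. Chil1, a chitinase-like protein, rose by 3.43.

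Among the 7 that were lower, Id2, an inhibitor of basic helix-loop-helix factors, was at 81.8, 79.9 and 73.3 FPKM in WT and at 38.6, 36.6 and 34.8 FPKM in Cthrc1-/- (log2 change -1.14, SE 0.14, adjusted p = 0.00749). The anion transporter Slc26a7 fell by 3.15 on the log2 scale, the inositol phosphate kinase Ipmk by 2.22, and the nuclear receptor coactivator Ncoa2 by 2.05. Rere, a transcriptional corepressor, was at 12.4, 11.2 and 11.9 FPKM in WT and at 4.46, 4.42 and 4.61 FPKM in Cthrc1-/-. It was called with 6 samples (adjusted p = 0.0177) and not with 12 (adjusted p = 0.0606).

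**Figure D4:**
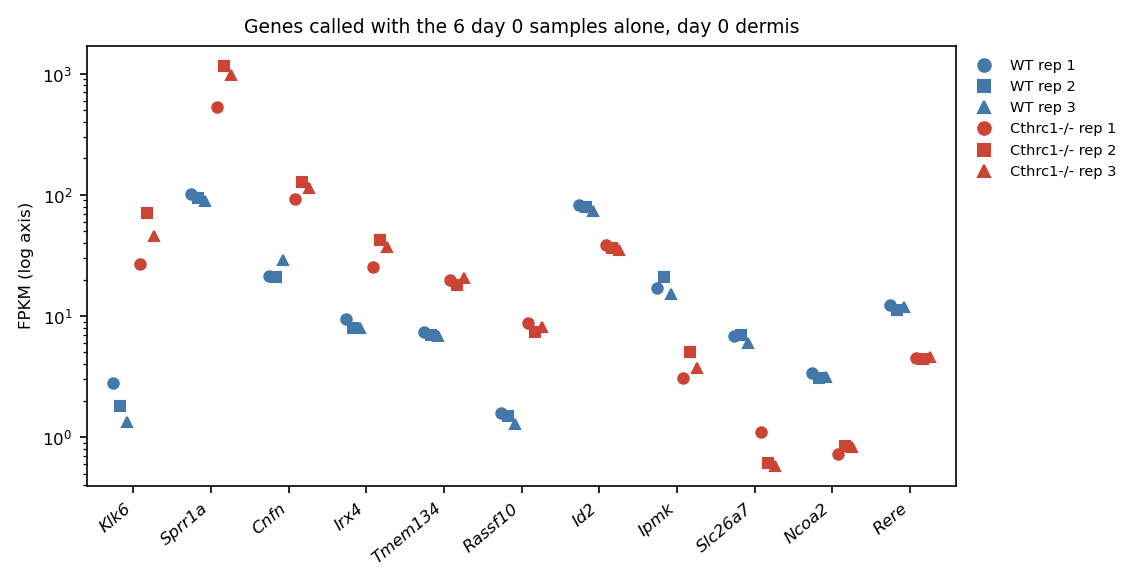
FPKM on a log axis of 11 of the genes called with the 6 day 0 samples alone, in each day 0 sample; blue is WT, red is Cthrc1-/-, and the symbol gives the replicate. The red points of each gene lie apart from its blue ones, as for Rere at 4.42 to 4.61 against 11.2 to 12.4 FPKM.

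The greatest falls beside Cthrc1 included secreted and metabolic genes. Plac9a was at 10.6, 11.99 and 8.52 FPKM in WT and had no count in Cthrc1-/-, at least 370.4-fold lower by the counts as assigned. On day 7 Plac9a was at 0, 8.09 and 6.73 FPKM in WT and at 2.90, 9.69 and 14.2 FPKM in Cthrc1-/-, so a value of 0 also occurred in WT. Its copy Plac9b matched it over 1040 transcript bases without a mismatch, so reads cannot be assigned with certainty; Plac9b was at 33.4, 18.6 and 41.5 FPKM in WT and at 49.5, 38.3 and 21.8 FPKM in Cthrc1-/-. Mup10, a major urinary protein from a family of near-identical genes, was at 12.5, 14.0 and 9.80 FPKM in WT and 0.288, 0.419 and 0 FPKM in Cthrc1-/-. The serine protease inhibitor Serpina3b fell by 3.12 on the log2 scale, the neuropeptide Gal by 3.01, the secreted angiopoietin-like factor Angptl7 by 2.99 and the cytochrome P450 gene Cyp2f2 by 2.61.

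On chromosome 15 within 10 Mb of the start of Cthrc1, 54 other genes were tested, of which 8 fell and 1 rose (16.7%). The share was 7.18% on the rest of the chromosome and 5.86% on all others, and the difference was not tested. Cpq, a secreted carboxypeptidase, was at 9.01, 8.13 and 9.73 FPKM in WT and at 4.93, 3.08 and 1.65 FPKM in Cthrc1-/-. Rrm2b, a ribonucleotide reductase subunit, fell by 0.96 on the log2 scale, and the noncoding Snhg18 by 1.73. Emc2 of the endoplasmic reticulum membrane complex rose by 0.49. Fzd6, a Frizzled receptor whose start lies 0.071 Mb from that of Cthrc1, was at 11.6, 11 and 12.7 FPKM in WT and at 9.79, 14.6 and 14.2 FPKM in Cthrc1-/- (log2 change 0.08, adjusted p = 0.874). The predicted gene Gm9522, at 1.65, 2.56 and 3.75 FPKM in WT, had no count in Cthrc1-/-, at least 50.3-fold lower. Fzd6 and Gm9522 were picked after their values had been seen. Without Cthrc1-/- replicate 3, edgeR called 4 of the 55 genes with Cthrc1 included, and also 4 without replicate 2.

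The falls of Polr2k and Rpl30, in the same region, were of genes with a near-identical copy elsewhere, and these copies were picked after their values had been seen. Polr2k, an RNA polymerase subunit, was at 24.3, 22.6 and 26.2 FPKM in WT and at 7.36, 6.61 and 8.44 FPKM in Cthrc1-/- (log2 change -1.75, SE 0.24, adjusted p = 0.0114). Gm20305, which matches its transcript at 99.4% over 177 bases, was at 1.60, 0.768 and 0.819 FPKM in WT and at 13.2, 12.8 and 13.7 FPKM in Cthrc1-/-. The ribosomal protein gene Rpl30 was at 157, 172 and 127 FPKM in WT and at 27.5, 50.1 and 57.8 FPKM in Cthrc1-/-, while Gm12191, 99.7% identical over 348 bases, was at 334, 221 and 509.8 FPKM in WT and 1058, 1061 and 1331 FPKM in Cthrc1-/-. In each pair the copy was higher where the named gene was lower, so these values are uncertain for both members, and what moved the reads was not tested. Rpl30 was the 1 of 90 cytoplasmic ribosomal protein genes that was called (1.11%, beside 5.95% over all genes). Without Cthrc1-/- replicate 3, 1 gene of that list was called.

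**Figure D5:**
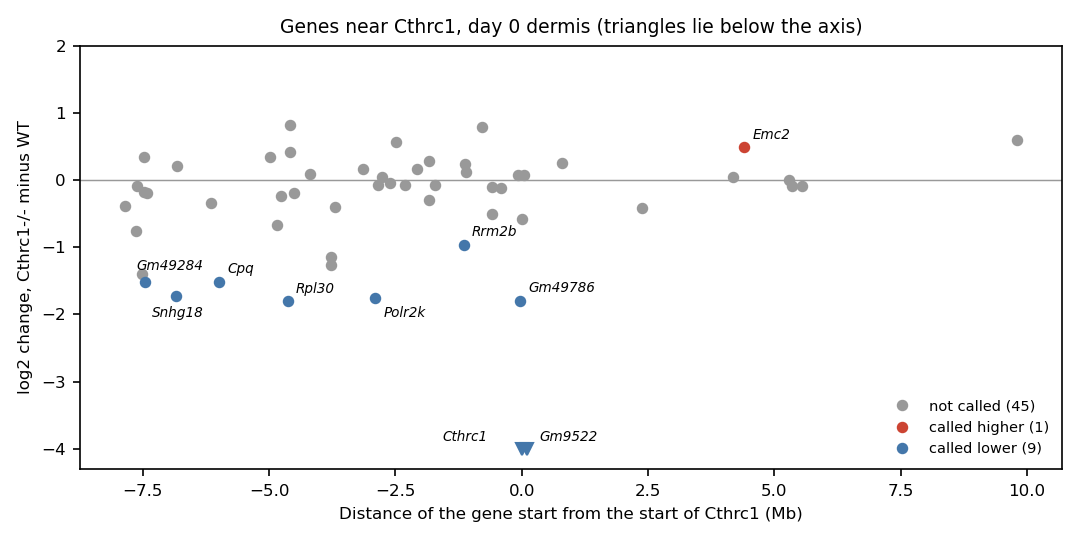
Log2 change between genotypes on day 0 of the 55 genes tested within 10 Mb of Cthrc1, by distance of the gene start in Mb; blue marks a called fall, red a called rise and grey no call, and triangles lie below the drawn range. All called falls but Cthrc1 and Gm9522 lie at negative distances, and the rise is Emc2 at 4.4 Mb. Most of the genes tested, called or not, also lie at negative distances.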

How the data were processed

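Counts and FPKM per gene and sample were deposited by the authors in 1 table of 55401 genes. The submitters' processing notes name cutadapt 1.9, HISAT2 2.0.4, UMI-tools, StringTie 1.3.4d, DESeq2, edgeR and the build GRCm38; their order and settings are not given in the sources used here. Per the labels' protocols, poly(A) libraries were strand-specific with molecular identifiers; whether the deposited counts were collapsed on these is not stated. Low counts at multiples of 4 were overrepresented, so division by 4 was an alternative. The deposited FPKM was a constant per gene times the count within each sample, and FPKM of genes with a count of 0 was set to 0.

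Gene IDs were matched to GENCODE M21 (55141 of 55401). Genes averaging 1 FPKM or more over the 6 day 0 samples were tested on counts as deposited with edgeR 4.0.16 (quasi-likelihood, two-sided, TMM scaling, R 4.3.3). All 12 samples entered 1 fit with a mean per group, so that the spread was estimated with 3 samples in each of 4 groups. Benjamini-Hochberg adjustment ran over the 13907 genes, a call means an adjusted p below 0.05, and "adjusted p" in the text is this value unless stated otherwise. The adjusted p-values rest on the spread between samples labelled as biological replicates, pooled over the 4 groups, and not on that within Cthrc1-/- on day 0 alone. Tested on simulated counts of this comparison with 200 changed genes, edgeR recovered 27% of those changed 2-fold and 81% of those changed 4-fold, with 6.09% false calls. With the 6 day 0 samples alone the shares were 7% and 67%. Whether the shares recovered and the share of false calls hold at the wider spread within Cthrc1-/- on day 0 was not tested.

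A lower bound of a fold change used a floor of 3 counts per library, which covers counting error only. Named genes were Cthrc1, the 12 greatest rises and falls among non-overlapping calls averaging 5 FPKM or more, up to 3 called members per list and direction, the 3 most abundant members of lists with fewer calls, and called genes within 10 Mb of Cthrc1. Some called genes are not reported here. Other called list members are given by their log2 change as all calls of that list. The members and gene lists were chosen with earlier results of these data known. Alternatives covered the samples fitted, scaling, filters, a replicate block, an inner root sheath covariate, DESeq2 1.42.0, limma 3.58.1 on log2(FPKM + 1) and log2(FPKM + 0.1), voom with group weights, and leaving out each sample. Deviations from the group means were correlated across genes to see whether samples sharing a number go together.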

Additional observations from a re-analysis of the deposited data

Results flagged for a closer look

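For 2 genes the genotype difference on day 0 differed from that on day 7 by edgeR's interaction test, adjusted over all genes (0.0144% of 13907). Apbb2, an adaptor of the amyloid precursor protein, was at 2.43, 2.47 and 2.48 FPKM in WT and 0.420, 0.557 and 0.250 FPKM in Cthrc1-/- on day 0. On day 7 it was at 0.845, 0.687 and 0.591 FPKM in WT and 2.43, 3.00 and 2.57 FPKM in Cthrc1-/-, so the order of the genotypes was opposite on the 2 days (interaction adjusted p = 0.0102). Pds5a, a cohesin regulator, was at 2.04, 1.93 and 1.88 FPKM in WT and 4.76, 4.81 and 6.07 FPKM in Cthrc1-/- on day 0. On day 7 it was at 1.70, 1.97 and 2.51 FPKM in WT and 2.12, 1.84 and 1.81 FPKM in Cthrc1-/-, where the genotypes overlapped (interaction adjusted p = 0.0382).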

How the results depend on the processing

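The number of called genes on day 0 was 828. It was 19 with the 6 day 0 samples alone, 440 with a mean FPKM minimum of 0.1, 536 with a minimum of 5, and 2695 in DESeq2. Leaving out each sample in turn gave between 23 and 2283; the counts were 34, 25 and 23 without WT replicates 1, 2 and 3, and 2283, 205 and 236 without Cthrc1-/- replicates 1, 2 and 3. Each of the 6 samples thus moved the count by more than 1.5 times. With the inner root sheath score of each sample as a covariate edgeR called 0 genes, with 885 at an unadjusted p under 0.05; 10 named genes then had the opposite sign, none called: Calhm4 (adjusted p = 0.953), Krtap8-1 (0.87), Krtap7-1 (0.876), Krt81 (0.876), Krt86 (0.91), Krtap11-1 (0.782), Krtap1-5 (0.886), Foxe1 (0.973), Wnt11 (0.876) and Fzd5 (0.649). On day 0 that score separates the genotypes, so it removes much of the day 0 contrast by construction. On day 7 the summed FPKM of the same list overlapped between the genotypes (1710 to 4186 in WT, 546 to 5482 in Cthrc1-/-).

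Same-numbered WT and Cthrc1-/- samples did not deviate together (correlations 0.003, -0.007 and -0.046), which gives no sign of pairing by number. With 3 samples a group and a wide spread within Cthrc1-/-, a weak shared effect could be missed. A replicate block gave 909 called genes with 12 samples, 653 of them among the 828, and 15 with the 6 day 0 samples. Adjusted p for Cthrc1 was 0.0197 with the block in 12 samples and 0.165 in 6, 0.071 with 6 samples and no block, and 0.403 with the covariate. Leaving out each sample gave between 0.00383 and 0.0325.

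Of 63 named genes that were called, 61 remained so with total-count scaling, 55 with limma on log2(FPKM + 0.1), 45 with limma on log2(FPKM + 1) and 49 with voom weights, where 46.5% of calls were higher in place of 63.5%. With the 6 day 0 samples alone 3 of the 63 remained, and 9 with a replicate block in these samples. A mean FPKM minimum of 0.1 left 38. Without WT replicate 1, 2 or 3, 6, 3 and 2 remained, and without Cthrc1-/- replicates 1, 2 and 3, 63, 20 and 29. The cause of these shifts was not tested. With 3 samples a group, changes near 2-fold were mostly missed in simulated counts, so a gene that was not called is not shown to be unchanged.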

Other observations

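Some called genes belong to no list above, and those named here were chosen after their values had been seen. Gpx2, a glutathione peroxidase of epithelia, was at 3.68, 2.96 and 2.77 FPKM in WT and at 13.03, 25.5 and 16.9 FPKM in Cthrc1-/- (edgeR adjusted p = 0.00737). The cysteine protease inhibitor Cstb was at 159.5, 135 and 149.5 FPKM in WT and at 394, 708 and 544 FPKM in Cthrc1-/- (adjusted p = 0.00981). Hexim1, an inhibitor of transcription elongation, was at 139, 144 and 136 FPKM in WT and at 57.1, 40.1 and 28.8 FPKM in Cthrc1-/- (adjusted p = 0.00749). The kinase gene Snrk was at 1.59, 2.97 and 1.78 FPKM in WT and at 9.02, 9.06 and 10.02 FPKM in Cthrc1-/- (adjusted p = 0.00749). In each of the 4 genes the genotypes did not overlap.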
